A study of Mus musculus with 155 samples.

Results

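The proneural and neuronal basic helix-loop-helix (bHLH) genes Neurog1, Neurog2, Neurog3, Neurod1, Neurod2, Neurod4, Nhlh1, Nhlh2 and Atoh1 were followed through KH2 mouse embryonic stem cells (ESCs), retinoic acid (RA)-treated cells and oligodendrocyte progenitor cell (OPC) cultures. The members were a fixed list of 9 symbols, and all 9 were found among the 55471 genes of the count tables. KH2 cells are mouse ESCs that carry a FLIP-in locus, into which a Doxycycline (Dox)-inducible extra copy of SNAP-HA-tagged H3.3 had been placed. The copy was wild-type (WT-H3.3), H3.3K27M (lysine 27 to methionine) or H3.3K27L (lysine 27 to leucine), so every library compared here, controls included, came from Dox-treated cells with this transgene. The tagged copy was added to the cells' own H3.3 genes, and the lines are hygromycin-selected colonies of this one ESC line. GSK343 libraries analysed here were ESCs of the WT-H3.3 line.

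There were 42 RNA libraries. ESCs gave 32, with 2 libraries at each of 4, 8, 24 and 72 h of Dox for each of the 3 lines and for the WT-H3.3 line given GSK343, an inhibitor of the H3K27 methyltransferase Ezh2. RA-treated cells gave 6, with 1 library per line at 24 and at 72 h of Dox, after culture without LIF and 2i. Times are hours of Dox, which was added after RA had started, so time in Dox and time in RA cannot be told apart. OPC cultures, grown from embryoid bodies with RA and purmorphamine, gave 4, with 1 library at 24 and 1 at 72 h for the WT-H3.3 line and the same for the H3.3K27M line. Values given for RA cells at one time follow the line order WT-H3.3, H3.3K27M, then H3.3K27L.

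Proneural bHLH factors are transcription factors that bind E-box DNA as dimers with the broadly expressed E proteins (Tcf3, Tcf4, Tcf12). Id proteins take E proteins away from them, and Hes and Hey repressors, which act downstream of Notch, silence their genes. Neurogenins (Neurog1 to 3) and Atoh1 start neuronal or endocrine programmes, whereas the Neurod and Nhlh genes are turned on later, as neurons differentiate. They are usually silent in pluripotent cells, where they carry Polycomb marks, and are common readouts of a neural exit from the ESC state.

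The upstream sequences of Nhlh1, Nhlh2 and a start of Neurod4, and of Neurog1 as a CpG-rich counterpart, are shown as examples of how unlike they are. They do not stand for all members raised in OPC cultures. Neurod1, also higher there, is not shown, and its window holds 22 CpG dinucleotides (67.6% GC). The other Neurod4 start, not shown either, holds 7. Each run is the 250 bases before the RefSeq transcription start (GRCm38.p6), read 5′ to 3′ on the strand of the gene. Capitals mark E-boxes, here any CANNTG, a motif that reads the same on both strands.
Nhlh1 (chr1:172057597-172057846, reverse strand): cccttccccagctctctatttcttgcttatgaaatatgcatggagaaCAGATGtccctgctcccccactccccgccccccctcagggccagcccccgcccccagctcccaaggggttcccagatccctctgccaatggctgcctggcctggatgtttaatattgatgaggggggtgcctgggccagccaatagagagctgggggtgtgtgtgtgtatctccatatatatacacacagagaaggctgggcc
Nhlh2 (chr3:102009895-102010144, forward strand): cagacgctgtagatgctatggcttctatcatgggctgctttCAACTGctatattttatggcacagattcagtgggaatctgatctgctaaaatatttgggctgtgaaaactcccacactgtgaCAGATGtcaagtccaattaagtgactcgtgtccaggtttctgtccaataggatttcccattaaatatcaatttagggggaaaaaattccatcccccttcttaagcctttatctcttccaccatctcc
Neurod4 (chr10:130280255-130280504, reverse strand): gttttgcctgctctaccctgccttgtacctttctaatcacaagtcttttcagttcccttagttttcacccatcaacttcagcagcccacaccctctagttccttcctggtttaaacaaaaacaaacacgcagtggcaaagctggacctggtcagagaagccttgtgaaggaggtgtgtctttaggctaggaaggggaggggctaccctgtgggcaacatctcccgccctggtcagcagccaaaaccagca
Neurog1 (chr13:56252181-56252430, reverse strand): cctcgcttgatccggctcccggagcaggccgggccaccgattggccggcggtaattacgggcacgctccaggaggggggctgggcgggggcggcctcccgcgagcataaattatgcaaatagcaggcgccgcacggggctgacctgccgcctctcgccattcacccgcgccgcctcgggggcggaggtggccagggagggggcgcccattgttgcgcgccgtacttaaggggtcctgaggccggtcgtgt

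RefSeq matched all 9 members, with 10 windows because Neurod4 has 2 starts. A CANNTG was present in 5 of the 10 windows, against 66.2% of all 32841 windows of the same length. The narrower form CAGATG, or CATCTG on the other strand, which is contained in CANNTG, was present in 3 of the 10 (Neurod2, Nhlh1 and Nhlh2), against 14.4% of all windows. The members ranged from 2 CpG dinucleotides in the window (Nhlh1, Nhlh2 and one start of Neurod4) to 29 (Neurog1), and the median window held 6. Nhlh1 and Nhlh2 are paralogs, and both windows hold a CAGATG and only 2 CpG. These matches are a description of letters, not of binding.

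In the NCBIM37 (mm9) annotation the members are short genes. Neurog1 lies at chr13:56351866-56353524, Neurog2 at chr3:127336054-127338549, Neurog3 at chr10:61595838-61597511, Neurod1 at chr2:79292678-79296908 and Neurod2 at chr11:98186729-98190962. Neurod4 lies at chr10:129705209-129717296, Nhlh1 at chr1:173982423-173987704, Nhlh2 at chr3:101814068-101819415 and Atoh1 at chr6:64679140-64681227. Neurod1 overlaps Cerkl and Gm17325, and Neurog3 overlaps 2010107G23Rik, and whether counting used strand is not given in the sources used here, so reads of these genes may not be fully separated.

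Totals per library ranged from 68378 to 21161392 counts in ESCs (median 8434332), from 2239137 to 22269533 in RA-treated cells and from 7499258 to 12387113 in OPC cultures. The ESC library with 68378 counts (H3.3K27L, 72 h, replicate 2) stood far below the next lowest, with 1247934, and no call changed without it. Levels are given as CPM, counts per 1000000 counts of the library, and tests are edgeR's quasi-likelihood test on the counts after its filter on low counts. A gene was called when its p adjusted over all genes tested was under 0.05 and its change was over 2-fold. DESeq2 size factors in place of TMM raised the median log2 fold change of all genes by 0.37 in RA 72 h against ESC 72 h, and moved the share of calls that were higher from 45.6% to 56.0%. The same replacement moved that share from 35.6% to 47.3% in RA 72 h against 24 h, from 55.4% to 67.7% in WT-H3.3 RA cells against ESCs and from 56.9% to 67.1% in H3.3K27L RA cells against ESCs. Expression rose with exon length more steeply in the RA 24 h libraries (Spearman's rho across genes 0.275 to 0.322) than in the other libraries (0.0463 to 0.208). Kit (3′ or whole transcript, not given per library), deposit and cell state cannot be told apart there.

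The labels of RA and OPC cultures were checked against marker lists. Summed ESC markers were at 3364 to 6479 CPM in the 32 ESC libraries and at 109.9 to 363 CPM in the RA and OPC libraries, and Pou5f1 was at most 5.36 CPM outside ESCs. Summed RA response genes were at 823 to 1274 CPM in RA-treated cells against 7.56 to 30.8 CPM in ESCs. The labels call the RA-treated cells neural progenitors, and the markers were mixed. Of the 8 measured progenitor genes, Pax6 (11.7 to 39.9 against 0 to 3.75 CPM in ESCs), Zic1 (9.31 to 30.9 against 0 to 0.824 CPM) and Pax3 (2.68 to 9.30 against 0 to 0.938 CPM) were higher in every RA library than in every ESC library, whereas Sox2 was lower (10.1 to 32.9 against 314 to 496 CPM). The list summed to 163 to 597 CPM in RA cells and to 383 to 614 CPM in ESCs. Of the 9 measured neuron genes, Gap43, Dcx and Syt1 were higher in every RA library than in every ESC library, Stmn2 was lower, and Snap25 was at most 0.0449 CPM in RA cells. Their sum, which in ESCs was mostly Stmn2 and Tubb3, was at 40.3 to 98.3 CPM in RA cells and at 238 to 632 CPM in ESCs. The extraembryonic endoderm list (8 genes) was at 2036 to 18788 CPM in RA cells and at 40.7 to 103 CPM in ESCs. They are called RA-treated cells here. OPC cultures held 678 to 2249 CPM of the OPC list against 14.6 to 57.5 CPM in ESCs. Within OPC cultures the fibroblast list was at 537 to 603 CPM in WT-H3.3 and at 21.9 to 26.8 CPM in H3.3K27M, Pdgfra, a defining OPC receptor, was at 14.4 to 21.6 CPM in WT-H3.3 and at 0.533 to 0.723 CPM in H3.3K27M, and Olig2 was at 256 to 306 CPM against 924 to 927 CPM. In bulk samples fewer cells of a type and less RNA per cell cannot be told apart.

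**Figure D1:**
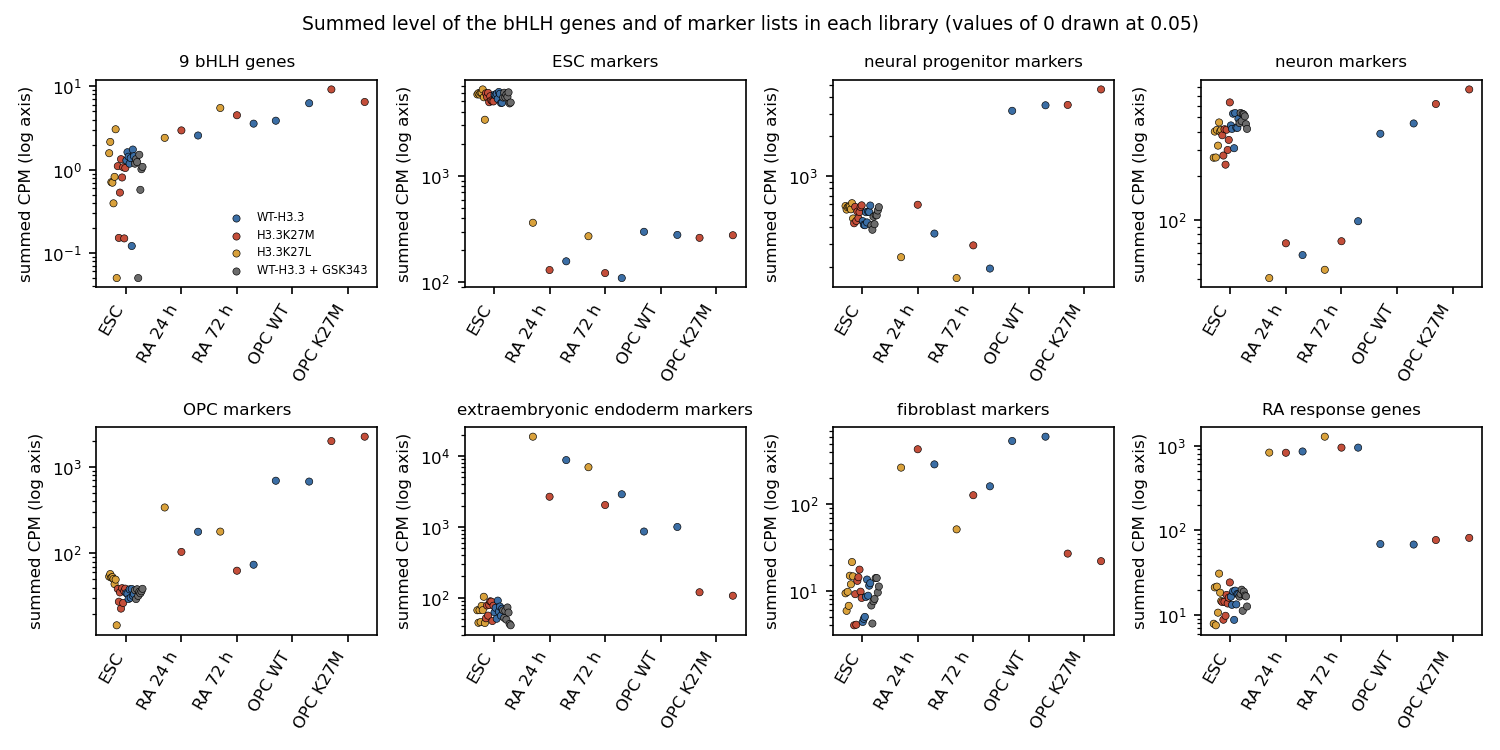
Summed level (CPM, log axis) of the 9 bHLH genes and of 7 marker lists, 1 point per library, for ESCs (32), RA-treated cells at 24 and 72 h (3 each) and OPC cultures of WT-H3.3 and H3.3K27M (2 each); the color gives the line. The bHLH genes sum to 0 to 3.06 CPM in ESCs and to 6.50 to 9.20 CPM in H3.3K27M OPC cultures, while the neuron list is lower in every RA library than in every ESC library.

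The 9 genes were close to silent in ESCs. Summed over the members, the 32 ESC libraries held 0 to 3.06 CPM (median 1.09), and between 3 and 9 of the 9 genes had no read in a given library. The sum was 2.41 to 2.96 CPM in RA cells at 24 h, 3.57 to 5.51 CPM at 72 h, 3.87 to 6.29 CPM in WT-H3.3 OPC cultures and 6.50 to 9.20 CPM in H3.3K27M OPC cultures. These sums rest on few reads and on different genes, which are therefore described one by one. The filter on low counts kept Neurod1 in every fit, Neurog1 in the fit of RA cells by line and Nhlh2 in the OPC fit. The other 6 members passed in no fit, so for them counts are given, and a fit with no filter as an alternative. A gene that passes through reads in only some groups is bound to differ between them, so the number passing is no measure of the family.

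**Figure D2:**
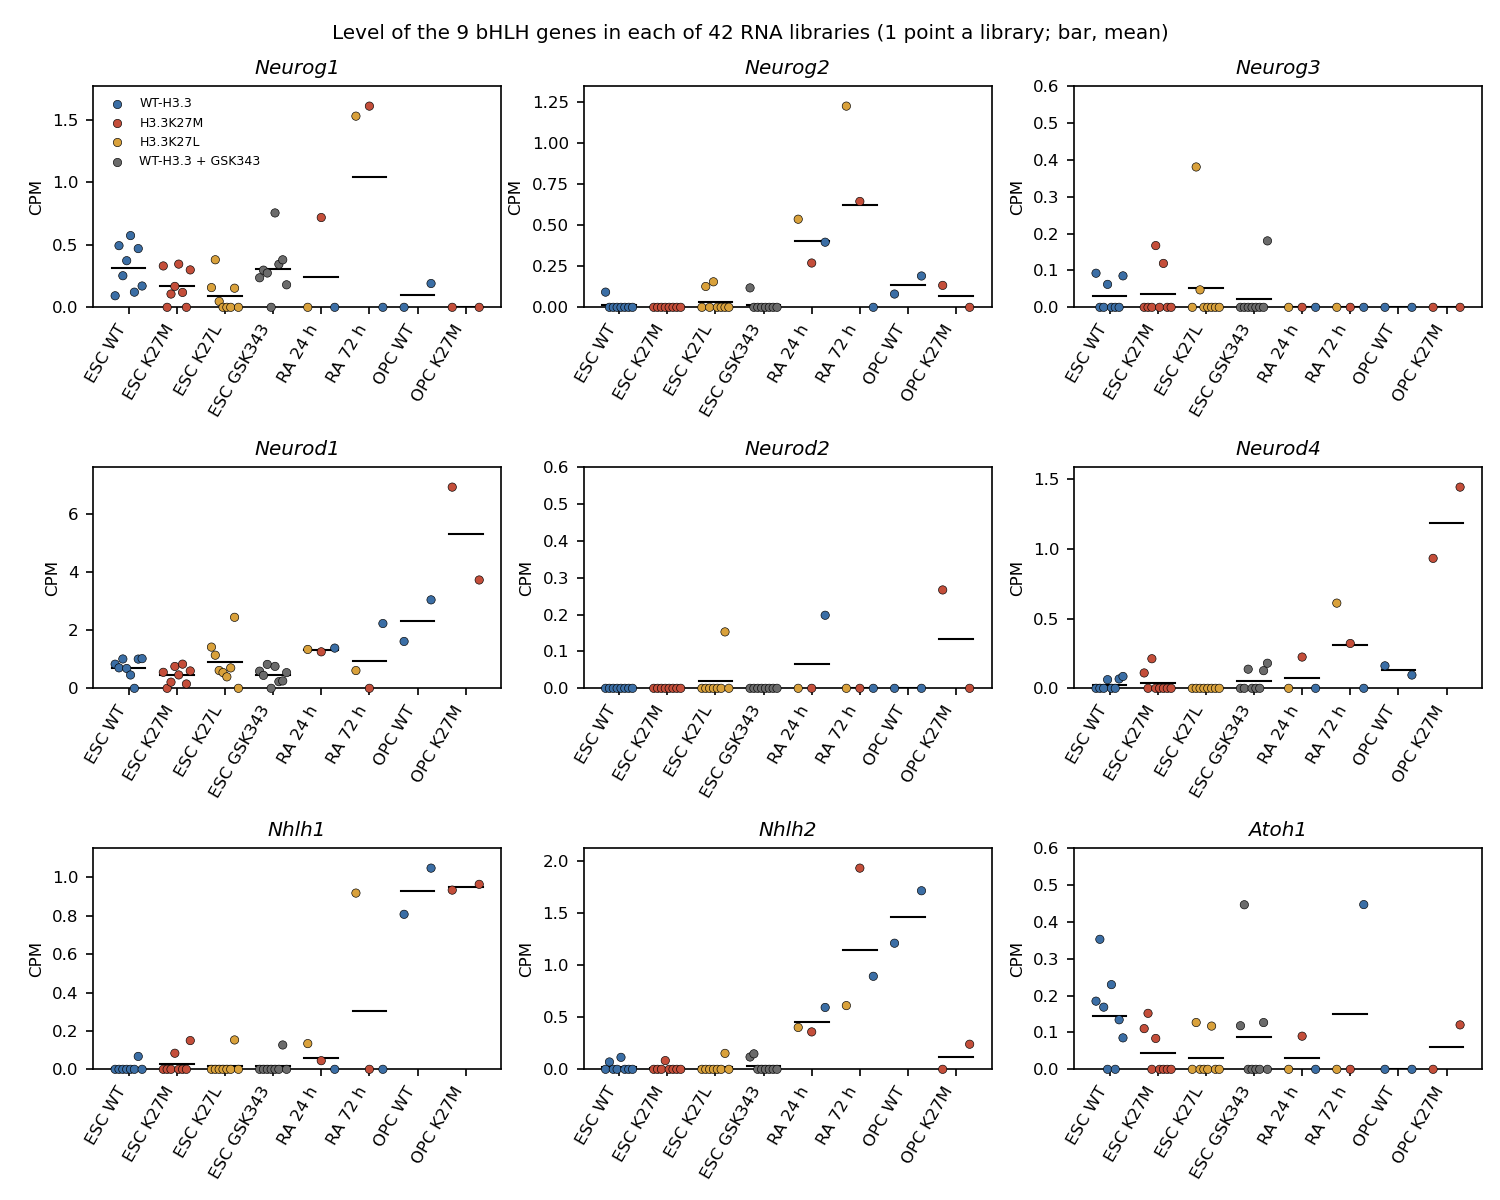
Level (CPM) of each of the 9 bHLH genes in 42 libraries, by cell state; points are libraries, colors lines, and bars means, and each gene has its own vertical scale. The highest values of Neurod1, Neurod4 and Nhlh1 are in OPC cultures, Nhlh2 is at 0.359 to 1.93 CPM in RA cells and at 0 and 0.241 CPM in H3.3K27M OPC cultures, and Neurog3, Neurod2 and Atoh1 reach at most 0.447 CPM.

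Among the neurogenins, which act first in the cascade, Neurog1 was the only one with regular reads in ESCs. It was at 0.0924 to 0.574 CPM in WT-H3.3 ESCs (median 0.313, 8 libraries), 0 to 0.346 in H3.3K27M (median 0.143), 0 to 0.38 in H3.3K27L (median 0.0236) and 0 to 0.755 with GSK343 (median 0.286), with at most 7 counts in a library. The 4 ranges overlap. In RA cells at 24 h it had 0, 16 and 0 counts in that line order (0, 0.718 and 0 CPM), and at 72 h it had 0, 5 and 5 counts (0, 1.61 and 1.53 CPM). Neither WT-H3.3 RA library held a Neurog1 read, whereas both H3.3K27M libraries did, above every H3.3K27M ESC library. The H3.3K27M and WT-H3.3 RA cells differed by 5.96 on the log2 scale (SE 2.45), with an unadjusted p of 0.0274 and an adjusted p of 1, so the difference was not called. Against a WT-H3.3 group with no read this fitted value depends on the prior count: pooled, 21 counts (0.828 CPM, exact Poisson 95% interval 0.512 to 1.27) stood against 0 counts. A floor of 3 counts over the WT-H3.3 RA libraries is 0.412 CPM, and the upper end of the exact interval for 0 counts lies above that floor. Neurog1 passed the filter of the fit by line through its reads in mutant RA libraries, so its passing and this difference are not independent. Counting intervals and floors, here and elsewhere, cover counting error only. OPC cultures had 2 Neurog1 counts in 1 WT-H3.3 library and none in the other 3.

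Neurog2, which drives cortical and spinal neurogenesis, had no read in 28 of 32 ESC libraries and 5 counts in all of them together. In RA cells at 24 h it had 2, 6 and 4 counts in that line order (0.396, 0.269 and 0.536 CPM), and at 72 h 0, 2 and 4 (0, 0.644 and 1.22 CPM). All 3 RA 24 h libraries held Neurog2 reads, and none of the 6 ESC libraries at 24 h did. With the ESC group set at a floor of 3 counts over its 6 libraries, the pooled RA level was 5.77 times the ESC level at 24 h. By the same floor it was 10.8 times the ESC level at 72 h. The counting error of the 12 and 6 RA counts is not in these values, so they are not lower limits. The 24 and 72 h RA levels do not differ beyond their counting intervals (0.345, 0.178 to 0.603 CPM, and 0.697, 0.256 to 1.52 CPM). In OPC cultures it had 1 and 2 counts in WT-H3.3 and 1 and 0 in H3.3K27M at 24 and 72 h. Neurog3, the pancreatic endocrine neurogenin, had no read in any of the 10 RA and OPC libraries. A floor of 3 counts is 0.0691 CPM over the RA libraries and 0.0775 CPM over the OPC libraries. In ESCs it had at most 3 counts. Atoh1, which acts in hindbrain, inner ear and gut, had at most 5 counts in any library, and pooled WT-H3.3 ESCs held 14 counts (0.145 CPM, interval 0.0793 to 0.243). The H3.3K27M, H3.3K27L and GSK343 ESC pools held 3, 2 and 5 counts.

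Of the later-acting factors, Neurod1 had the most reads, with 380 counts over the 42 libraries. It was at 0 to 1.02 CPM in WT-H3.3 ESCs (0.715 ± 0.35, SD, n = 8), 0 to 0.833 in H3.3K27M (0.445 ± 0.298, SD, n = 8), 0 to 2.45 in H3.3K27L (0.908 ± 0.759, SD, n = 8) and 0 to 0.824 with GSK343 (0.455 ± 0.28, SD, n = 8). In RA cells at 24 h it was at 1.39, 1.26 and 1.34 CPM in the 3 lines, and at 72 h at 2.23, 0 and 0.612 CPM. In OPC cultures it was at 1.61 (24 h) and 3.05 CPM (72 h) in WT-H3.3 and at 6.93 and 3.73 CPM in H3.3K27M. The 3 RA 24 h libraries lie above all 6 ESC 24 h libraries (0 to 0.833 CPM), the RA 72 h libraries overlap ESCs, and the 4 OPC libraries lie above the 8 ESC libraries of the same lines and times, whose highest value was 1.02 CPM. In the order of pooled levels, ESCs (0.635 CPM, 0.466 to 0.844) and RA 72 h (0.813, 0.327 to 1.67) do not differ beyond their intervals, nor do RA 72 h and RA 24 h (1.29, 0.944 to 1.73). WT-H3.3 OPC cultures (2.27, 1.70 to 2.98) and H3.3K27M OPC cultures (5.25, 4.18 to 6.51) come last.

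Neurod4, which acts in hindbrain and retina, had 9 counts over all 32 ESC libraries. In RA cells it had 0, 5 and 0 counts at 24 h and 0, 1 and 2 at 72 h. In OPC cultures it had 2 and 1 counts in WT-H3.3 (0.161 and 0.0953 CPM) and 7 and 12 in H3.3K27M (0.933 and 1.45 CPM) at 24 and 72 h. Both H3.3K27M libraries therefore stood above every other library of the series, the highest of which was an RA library at 0.612 CPM. Neurod2, a factor of postmitotic cortical neurons, had 4 counts in all 42 libraries.

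Nhlh1 and Nhlh2 (also called NSCL factors) are expressed in newly born neurons. Nhlh1 had 5 counts over the 32 ESC libraries, with at most 1 in a library. It had at most 1 count in each RA 24 h library and 0, 0 and 3 at 72 h. In OPC cultures it had 10 and 11 counts in WT-H3.3 (0.807 and 1.05 CPM) and 7 and 8 in H3.3K27M (0.933 and 0.963 CPM), so the lines overlapped. Nhlh2 had 6 counts over the 32 ESC libraries, with at most 1 in a library. In RA cells it had 3, 8 and 3 counts at 24 h (0.594, 0.359 and 0.402 CPM) and 2, 6 and 2 at 72 h (0.893, 1.93 and 0.612 CPM). Each RA library was above the highest ESC library, at 0.153 CPM. In OPC cultures Nhlh2 had 15 and 18 counts in WT-H3.3 (1.21 and 1.71 CPM) and 0 and 2 in H3.3K27M (0 and 0.241 CPM), so there the lines did not overlap.

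**Figure D3:**
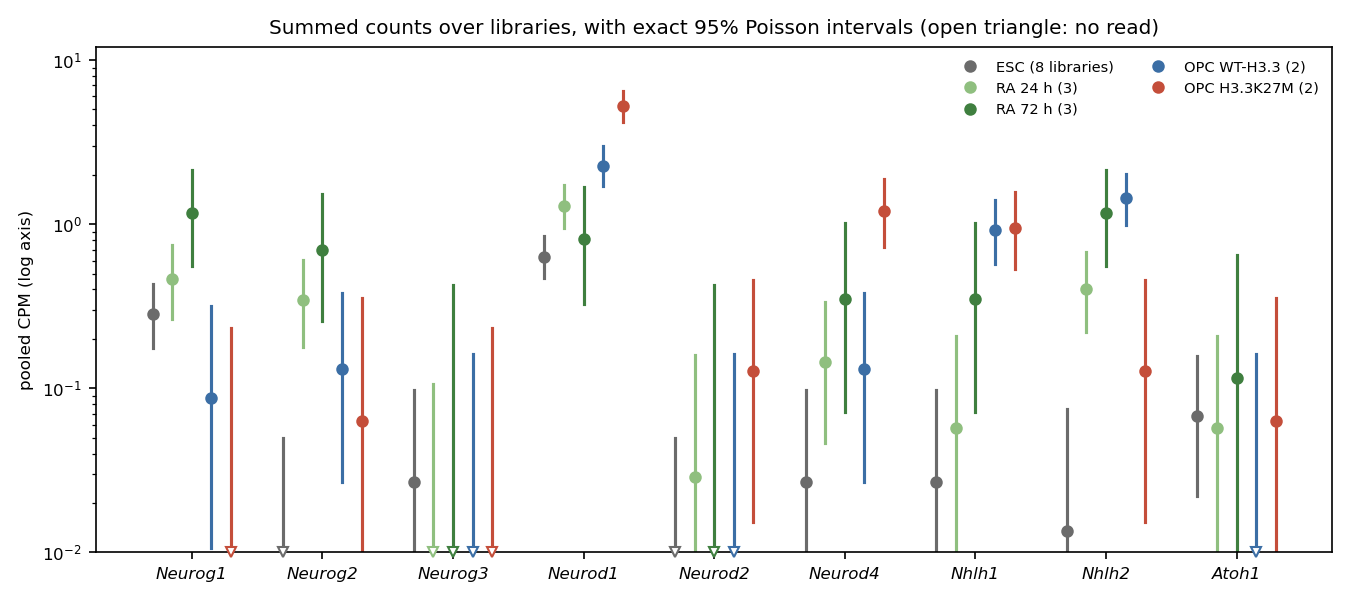
Level of each bHLH gene from counts summed over libraries (pooled CPM, log axis) with exact 95% Poisson intervals, for WT-H3.3 and H3.3K27M ESCs at 24 and 72 h (8 libraries), RA cells at 24 and 72 h (3 each) and OPC cultures (2 per line); an open triangle marks a group with no read. The intervals of Nhlh2 and of Neurod4 in the 2 OPC lines do not overlap, in opposite directions, while those of Nhlh1 coincide.

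The RA comparisons ask which genes changed as ESCs left pluripotency under RA with each H3.3 expressed. At 24 h, Neurod1 was higher than in ESCs (log2 change 1.41, SE 0.58, adjusted p = 0.0364), in 3 of 3 RA libraries. It was the 1 member of 9 that passed the filter, and 42.5% of the 14227 genes tested were called in this comparison, 3396 higher (23.9%) and 2651 lower. Neurod1 passed mainly through RA libraries, WT-H3.3 at 24 h (1.39 CPM) among them, and 1 ESC library (H3.3K27L, 72 h, 2.45 CPM). No ESC library at 24 h was above 0.833 CPM, so its passing and this call are not independent. The call is a narrow one: leaving out H3.3K27L ESC replicate 1, either WT-H3.3 ESC replicate, or the H3.3K27M or the WT-H3.3 RA library, all at 24 h, gave adjusted p-values of 0.0651, 0.051, 0.0649, 0.226 and 0.0828. DESeq2 gave 0.0711 and the reference of all ESC Dox times 0.104. At 72 h, with 58.8% of genes called, Neurod1 was not called (log2 fold change −0.40, SE 0.81, adjusted p = 0.663). The difference of the 72 h and 24 h changes was −1.81 (SE 0.98, adjusted p = 0.124, 42.4% of genes called), which with no filter was called (−1.97, SE 0.76, adjusted p = 0.0402, 20.5% of genes called, 14.1% lower), and RA 72 h against RA 24 h gave −0.70 (SE 0.83, adjusted p = 0.484, 41.6% of genes called). Without RA WT-H3.3 at 72 h, Neurog1 passed the filter and was called higher at RA 72 h than in ESCs and than at RA 24 h, the latter also without RA H3.3K27M at 24 h. The first omission removes a library with 0 Neurog1 counts and lets the gene pass through the RA 72 h libraries that hold its reads, so these calls follow from the omission and the filter.

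With no filter, 3 of the 9 members were called higher at 24 h and none lower, against 13.8% of 33363 genes called higher and 25.4% in either direction. Neurod1 was joined by Neurog2 (log2 fold change 4.54, SE 1.24, adjusted p = 0.00114) and Nhlh2 (3.51, SE 1.03, adjusted p = 0.00248). At 72 h, with 31.2% of genes called and 13.3% called higher, the 3 were Neurog1 (2.09, SE 0.78, adjusted p = 0.0208), Neurog2 (4.88, SE 1.46, adjusted p = 0.00276) and Nhlh2 (4.76, SE 1.1, adjusted p = 6.04e-05). The fitted folds of Neurog2 and Nhlh2 rest on 0 or 1 ESC counts. For Nhlh2 the pooled ratio was 20.2 (interval 3.07 to 854) at 24 h, from 14 counts against 1, and 54.1 (7.70 to 2348) at 72 h, from 10 against 1. For Neurog1 at 72 h it was 4.51 (1.74 to 11.4), from 10 against 12 counts, although WT-H3.3 RA cells gave none of the 10. The summed neuron list moved the other way in the same libraries, as given above, and Rbfox3 was at 0 to 1.79 CPM in RA cells and 0 to 1.13 CPM in ESCs. The fibroblast list was at 264 to 431 CPM at 24 h and 51.1 to 161 CPM at 72 h, against 3.97 to 21.4 CPM in ESCs, and the extraembryonic endoderm list was higher still, as given above. The part of these cells in the bHLH reads was not tested.

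Line by line, with the 24 and 72 h libraries as a pair, no member was called in RA cells against ESCs, where 34.7% (WT-H3.3), 35.4% (H3.3K27M) and 33.4% (H3.3K27L) of 14881 genes were called. Neurod1 changed by 1.27 (SE 0.98, adjusted p = 0.325), 0.54 (SE 0.95, adjusted p = 0.688) and −0.26 (SE 1.03, adjusted p = 0.872). Neurog1 gave −4.50 (SE 2.60, adjusted p = 0.188), 2.20 (SE 1.07, adjusted p = 0.118) and 3.27 (SE 1.58, adjusted p = 0.118). With no filter, Nhlh2 was called higher in WT-H3.3, Neurog2 and Nhlh2 in H3.3K27M and Neurog2 in H3.3K27L, against 17.8%, 19.3% and 16.7% of 33363 genes called, 9.63%, 11.3% and 9.29% as higher, so that 1 or 2 of 9 members is near the background. With a term for Dox time, Neurog1 was called in H3.3K27M (log2 fold change 2.37, SE 0.80, adjusted p = 0.0135). The share of all genes called with this term is not given here. Neurog1 passed the filter through the H3.3K27M and H3.3K27L RA libraries at 72 h (1.61 and 1.53 CPM), while WT-H3.3 RA cells held no read. Its passing is therefore not independent of its changes or of the differences between lines. The mutant change less the WT-H3.3 change of Neurog1 was 6.70 (SE 2.68, unadjusted p = 0.0238, adjusted p = 1) for H3.3K27M and 7.77 (SE 2.93, unadjusted p = 0.0178, adjusted p = 1) for H3.3K27L, and none of the 14881 genes was called for either mutant (165 and 450 genes at an unadjusted p under 0.05; 5 and 7 called by the same edgeR test with no filter). Between RA lines, 0 genes were called for H3.3K27M against WT-H3.3 (150 at an unadjusted p under 0.05; with no filter 4 by the same edgeR test) and 3 (0.0202%) for H3.3K27L, none of them members. Leaving out RA H3.3K27L at 24 h made Neurog1 called in that line (4.58, adjusted p = 0.0189), and leaving out RA H3.3K27M at 24 h made Nhlh2, which passed no filter otherwise in that fit, called in H3.3K27M; each omission leaves 1 RA library in its arm, whose spread is taken from the other groups. With 1 library per line and time, these splits leave little to test. The fit also takes 24 and 72 h as replicates, though 41.6% of genes were called between these RA times in the fit by time. Its common dispersion, edgeR's measure of the spread between libraries, was 0.159, and 0.0331 with a term for Dox time by cell state. The few calls between lines therefore do not show that the lines are alike.

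Of 62 other genes of the network, 41 passed the filter in the RA fit, of which 16 were called higher and 11 lower at 24 h and 19 higher and 11 lower at 72 h. Their median log2 fold change was 0.58 at 24 h and 0.95 at 72 h, against 0.03 and −0.17 over all genes tested. Of all 14227 genes tested, 3396 were called higher and 2651 lower at 24 h (42.5% called). At 72 h 3816 were called higher and 4549 lower (58.8%). Among the 3 E proteins, Tcf12 rose at both times, from 37.6 to 54.7 CPM in ESCs at 24 h to 148 to 214 CPM in RA cells (log2 fold change 1.86, SE 0.15, adjusted p = 4.23e-10). Of the 4 Id genes, Id1, Id2 and Id3 rose at both times. Id2 was at 5.71 to 10.7 CPM in ESCs and 132 to 166 CPM in RA cells at 24 h (4.22, SE 0.17, adjusted p = 1.99e-15) and reached 284 to 495 CPM at 72 h. Rest, which silences neuronal genes outside neurons, fell from 421 to 623 CPM to 168 to 230 CPM at 24 h (−1.37, SE 0.17, adjusted p = 3.41e-07).

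Hey2, a Notch effector, rose from 0.23 to 0.526 CPM to 2.51 to 12.1 CPM at 24 h, and 4 of the 5 tested genes of the Hes, Hey and Rest list (Hes1, Hes6, Hey1, Hey2) were higher at 72 h. Hes6 is in that list by family and is also a known target of proneural factors, so the count is not one of repressors alone. The Notch ligand Dll1, a direct target of neurogenins in other systems, rose from 0 to 1.55 CPM to 3.37 to 4.42 CPM at 24 h (3.07, SE 0.56, adjusted p = 4.9e-05), whereas the glycosyltransferase Mfng fell. Of the other neural bHLH genes Atoh8 rose, from 0 to 0.238 CPM to 4.75 to 6.06 CPM, while the oligodendrocyte factor Olig2 fell from 12.3 to 31.3 CPM to 0 to 0.198 CPM. Of 16 tested targets and cofactors, 8 were called higher and 6 lower at 24 h, where 42.5% of all genes were called, 23.9% as higher. Dcx, a microtubule protein of migrating neurons, rose from no read to 2.41 to 11.9 CPM, and Stmn2, a neuronal tubulin regulator that these ESCs expressed at 175 to 398 CPM, fell to 2.95 to 3.76 CPM. The mesodermal bHLH gene Mesp2 was called higher at 72 h (0 to 1.41 CPM in ESCs, 2.14 to 4.19 CPM in RA cells), and 4 of the 6 mesodermal genes did not pass the filter.

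**Figure D4:**
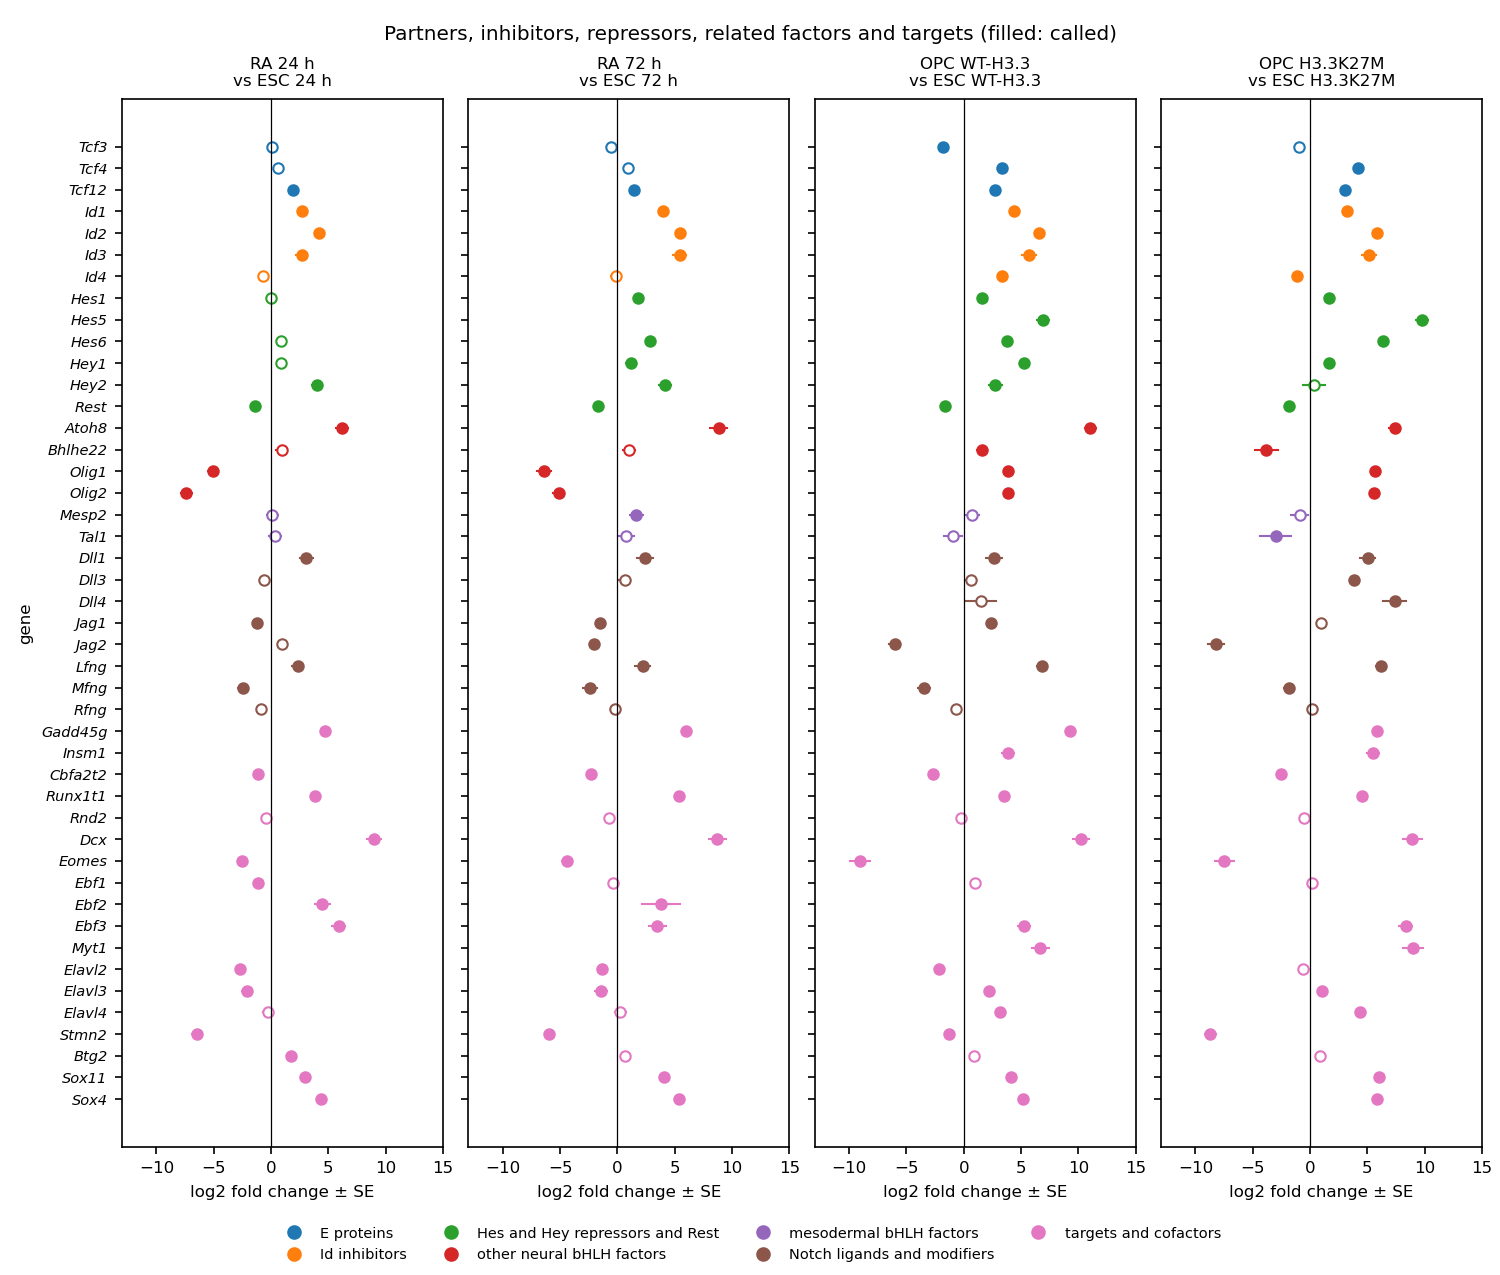
Log2 fold change (point) ± SE (bar, derived from the test's F statistic) of the other genes of the proneural network that passed the filter, by role (color), in RA cells at 24 and 72 h and in WT-H3.3 and H3.3K27M OPC cultures, each against ESCs. Filled points were called. Id1, Id2 and Id3 are higher and Rest is lower in all 4 panels, while Olig1 and Olig2 are lower in RA cells and higher in OPC cultures.

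OPC cultures against ESCs show what was reached after the longer, neural-directed protocol. Neurod1 was higher than in ESCs, with a log2 change of 1.83 (SE 0.59, adjusted p = 0.0086) in WT-H3.3 and 3.42 (SE 0.61, adjusted p = 6.29e-05) in H3.3K27M, in 2 of 2 libraries of each line. Nhlh2 was higher in WT-H3.3 (5.40, SE 0.85, adjusted p = 3.25e-05), and in H3.3K27M its change did not pass (3.47, SE 1.74, adjusted p = 0.08). These comparisons called 68.2% and 66.2% of the 15041 genes tested, 31.5% and 29.5% as higher, so that a called gene was the usual case. Without WT-H3.3 OPC at 72 h, Neurod1 was not called in WT-H3.3 (1.33, adjusted p = 0.134). Neurod1 and Nhlh2 both passed the filter of this fit only through their OPC reads, so their passing and these calls are not independent. The ESC libraries of the fit held at most 1.02 CPM of Neurod1. For Nhlh2, 33 counts stood against 2 in all WT-H3.3 ESCs, a pooled ratio of 69.6 (interval 17.8 to 599). Without WT-H3.3 ESC replicate 1 at 24 h, which held the 1 ESC count of that fit, its fitted change was 6.83. Without the H3.3K27M OPC library at 24 h, Nhlh2 was called in H3.3K27M too (4.38). Neurod4 then passed the filter through the 12 counts of the 1 H3.3K27M library left, whose spread is taken from the other groups, so its calls there (higher than in ESCs and than in WT-H3.3 OPC cultures) were set by that filter.

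With no filter, where 41.0% and 37.9% of 32250 genes were called, 18.1% and 16.6% as higher, 3 members were called higher in each line and none lower. Nhlh1 was called in both, with a change of 4.75 (log2, SE 0.97, adjusted p = 3.26e-06) in WT-H3.3 and 4.42 (SE 1.06, adjusted p = 0.000103) in H3.3K27M. Neurod4 was called in H3.3K27M alone (6.53, SE 1.30, adjusted p = 2.25e-06), from 19 counts against 3 in H3.3K27M ESCs (ratio 27, interval 7.96 to 143). Neurog1, the neurogenin of ESCs, went the other way in pooled counts, with 2 in the OPC cultures (0.0517 CPM) against 21 in the ESCs of the same lines and times (0.284 CPM, ratio 0.182, interval 0.0207 to 0.746), and was not called.

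Between OPC lines, Nhlh2 was lower in the H3.3K27M line than in the WT-H3.3 line (log2 fold change −3.36, SE 0.92, adjusted p = 0.0118), in 2 of 2 libraries, with 22.4% of genes called, and 12.2% called lower. The gene passed the filter through the WT-H3.3 OPC libraries alone, the group where it was high, so the passing and the call are not independent. The pooled ratio was 0.0878 (interval 0.0102 to 0.343). DESeq2 gave −3.49 with an adjusted p of 0.124, and the call was lost without WT-H3.3 at 72 h (adjusted p = 0.0745) or without H3.3K27M at 24 h (−2.48, adjusted p = 0.12). Without H3.3K27M at 72 h, which held both of that line's reads, the fitted change was −6.85. Neurod4 went the opposite way, with 9.17 times the pooled WT-H3.3 level in H3.3K27M (interval 2.7 to 48.4), and was called with no filter (3.06, SE 0.99, adjusted p = 0.0167, 11.5% of genes called, 4.82% higher). Neurod1 was 1.23 higher on the log2 scale (SE 0.61, adjusted p = 0.136), which was not called. Nhlh1 did not differ detectably, with a pooled ratio of 1.03 (interval 0.496 to 2.10). The changes from ESCs were not called as different between the lines for Neurod1 (difference 1.59, SE 0.89, adjusted p = 0.236) or Nhlh2 (−1.93, SE 5.86, adjusted p = 0.904), where 16.3% of genes were.

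The fibroblast and the extraembryonic endoderm lists were also lower in H3.3K27M OPC cultures, the latter at 106 to 119 CPM against 859 to 997 CPM in WT-H3.3. The fibroblast list had all 8 markers detected in all 4 libraries, and 7 of the 8 were lower in both H3.3K27M libraries, with Col1a1 at 148 to 155 CPM and Col3a1 at 194 to 221 CPM in WT-H3.3, and at 2.17 to 4.13 and 2.41 to 4.00 CPM in H3.3K27M. Thy1 went the other way, at 12.1 to 14.0 CPM in H3.3K27M and 5.25 to 7.43 CPM in WT-H3.3. The neuron list was at 616 to 774 CPM in H3.3K27M against 387 to 454 CPM in WT-H3.3 and its genes split. Gap43 (331 to 427 against 168 to 239 CPM), Syt1 (181 to 255 against at most 13.2 CPM), Elavl4 and Rbfox3 (13.5 to 16.7 against 3.39 to 4.10 CPM) were higher in both H3.3K27M libraries, Stmn2, Snap25 (0.602 to 0.933 against 4.28 to 4.57 CPM), Dcx (5.06 to 7.07 against 10.1 to 20.2 CPM) and Elavl3 (7.87 to 9.76 against 16.5 to 28.5 CPM) were lower in both, and Tubb3 overlapped. Their part in the levels of Nhlh2, Neurod1 and Neurod4 was not tested. Over all 42 libraries the genes whose log2(CPM + 0.5) ran closest to Nhlh2 were Twist2 (Pearson's r 0.945), Osr1 (0.920) and Nepn (0.918), of which Twist2 and Osr1 are transcription factors of mesenchyme. The libraries share cell state and depth, so these are descriptions. Neurog1, the other member with a mean of at least 1 CPM in RA cells at 72 h, had no close gene (highest r 0.566, Amn), and its counts are too sparse to read more from it.

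More of the tested network genes were called higher than lower in OPC cultures. Of 44 network genes tested, 28 were called higher and 8 lower in WT-H3.3, and 26 higher and 9 lower in H3.3K27M. Their median log2 fold changes were 2.74 and 3.11, against −0.16 and −0.22 over all genes. Over all genes tested, 68.2% and 66.2% were called, 31.5% and 29.5% as higher. The E protein Tcf4 rose from 52.1 to 86.0 CPM in ESCs to 581 to 615 CPM in WT-H3.3 and 1079 to 1192 CPM in H3.3K27M. Id2 reached 645 to 711 CPM and 410 to 483 CPM. Hes5, the Notch effector of neural progenitors, was at 0 to 0.243 CPM in ESCs, 9.04 to 15.8 CPM in WT-H3.3 and 58.1 to 67.2 CPM in H3.3K27M.

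Between OPC lines 13 network genes were higher and 13 lower in H3.3K27M, among 44 tested, with a median log2 fold change of 0.21. Over all genes tested, 22.4% were called, 12.2% as lower. Repressor and ligand genes split. Dll3 was at 20.2 to 29.9 CPM in H3.3K27M against 2.74 to 5.43 CPM in WT-H3.3 (2.66, SE 0.48, adjusted p = 0.000413), and Dll4 was at 1.47 to 2.65 against 0.0807 to 0.0953 CPM. Hey1 was at 3.73 to 3.97 against 66.6 to 75.2 CPM (−4.15, SE 0.33, adjusted p = 1.12e-07). Id4 was at 2.40 to 4.09 against 64.5 to 75.5 CPM (−4.37, SE 0.42, adjusted p = 8.14e-07), and Id1 and Id3 were lower too. Dll1 was higher as well, and Jag1 lower. No E protein was called. Among targets, Gadd45g (97.1 to 125 against 544 to 674 CPM) and Stmn2 (0.482 to 0.8 against 105 to 147 CPM) were lower in H3.3K27M, as were Dcx, Ebf1 and Elavl3, while Insm1, Ebf3, Elavl2, Elavl4, Sox4 and Sox11 were higher.

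In ESCs, where the mutants and GSK343 were compared with WT-H3.3 over the 4 Dox times, no member was called. Neurod1 changed by −0.49 (SE 0.45, adjusted p = 0.692) in H3.3K27M, 0.66 (SE 0.40, adjusted p = 0.332) in H3.3K27L and −0.37 (SE 0.46, adjusted p = 0.975) with GSK343. In these comparisons 0.0142%, 3.46% and 0% of 14076 genes were called, the last with 621 genes at an unadjusted p under 0.05 and 25 called by the same edgeR test with no filter. With no filter Neurog1 was lower in H3.3K27L (−2.23, SE 0.73, adjusted p = 0.0433), with 2.27% of genes called, 1.96% lower. It had 6 counts against 32 in WT-H3.3, a pooled ratio of 0.255 (interval 0.0871 to 0.618). Neurog2, Neurod2, Neurod4, Nhlh1 and Nhlh2 each had at most 3 pooled counts in every one of the 4 ESC groups, so no difference in them was detectable at this depth.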

How the data were processed

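RNA libraries were single-end 3′ (QuantSeq) or whole-transcript (KAPA) libraries, and the kit of each library is not given in the sources used here. The authors deposited raw counts per gene, and per the labels reads were processed with STAR 2.7.1 on mm9; the version numbers of the deposited gene IDs are newer than the NCBIM37 annotation used here for names and positions, so the counted gene models may differ from it. IDs without version matched 32589 of 55471 genes (98.2% of counts), and 1435 chromosome 8 genes (5.78% of counts) were not tested. The members and lists were chosen with earlier results of these data known. Counts were filtered with filterByExpr (minimum count 10), scaled by TMM and tested with edgeR 4.0.16 (quasi-likelihood, Benjamini-Hochberg over all genes tested; changes over 2-fold or under 0.5-fold at an adjusted p under 0.05, as in the study), in fits of RA and ESC cells by state and time with line as a term (18 libraries), the same by state and line, OPC and ESC cells by state and line (12 libraries), and ESCs by group and time (32 libraries). For each fit, 1 comparison was run on simulated counts with the filter on, at a dispersion below that of the RA fit by line (0.159). Fits with no filter, interaction tests and DESeq2 were not simulated. DESeq2 1.42.0, no filter, other scalings and references, a 4-fold threshold and each replicate left out were the alternatives. CPM uses library totals. 1 gene of the network is not reported here. Named network genes are, per role and comparison, at most the 2 called genes with the largest change; any other network or marker gene was named after its values were seen. For members with a mean of at least 1 CPM in RA 72 h libraries, the 3 genes of highest Pearson's r on log2(CPM + 0.5) were named. ESC replicates were repeated weeks apart, per the study's methods; RA and OPC libraries have 1 per line and time, so their p-values treat lines or times as replicates. Labels number ESC replicates 1 and 2. Differences between replicates correlated between WT-H3.3 and H3.3K27M at each of the 4 times (r 0.433 to 0.587), which pairs them. For H3.3K27L they were opposed at 4, 8 and 24 h (r −0.417, −0.599 and −0.440), as with the numbers in reverse order. At 72 h they were weakly alike (0.147). For GSK343 the sign varied between times (−0.191 to 0.606).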

Additional observations from a re-analysis of the deposited data

Results flagged for a closer look

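Some genes of the network named in the report changed by different amounts between times or lines, in an interaction test of the same edgeR fits with p adjusted over all genes tested. The change from ESCs at 72 h was larger than that at 24 h by a log2 difference of 2.01 for Hes6, 1.29 for Id1, 1.26 for Id2, 2.79 for Id3 and 2.30 for Olig2, whose fall was smaller, in a test that called 42.4% of all genes. Between the OPC lines, the change in H3.3K27M less that in WT-H3.3 was 3.24 for Dll3, 2.58 for Hes6, 1.85 for Olig1 and 1.70 for Olig2, and −5.43 for Bhlhe22, −3.40 for Gadd45g, −3.64 for Hey1, −4.43 for Id4 and −7.42 for Stmn2, in a test that called 16.3% of all genes. Of the bHLH genes, only Neurod1 could be tested between times and only Neurod1 and Nhlh2 between OPC lines after the filter, and neither was called. With no filter, edgeR called the Neurod1 difference between times (−1.97, adjusted p = 0.0402, 20.5% of genes called). No ESC library stood apart from its group in Neurod1, the 1 member that could be examined for this.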

How the results depend on the processing

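With no filter on low counts, called members numbered 3 at RA 24 h, 3 at RA 72 h, 1 each in WT-H3.3 (Nhlh2) and H3.3K27L (Neurog2) RA cells, 2 in H3.3K27M RA cells (17.8%, 16.7% and 19.3% of all genes), 3 in H3.3K27M OPC cultures, 2 between OPC lines, 1 in H3.3K27L ESCs and 1 (Neurod1) in the difference of RA times (20.5% of all genes), an alternative chosen after seeing the data. At RA 24 h the Neurod1 call was lost, leaving 0, with DESeq2, with a 4-fold threshold, with all ESC Dox times as reference and with ESC libraries of replicate number 1 alone, where it did not pass the filter. DESeq2 left 0 calls between OPC lines, and the 4-fold threshold left 1 in WT-H3.3 OPC cultures. A Dox time term, or all 8 ESC libraries of the line, gave 1 call in H3.3K27M RA cells. It was Neurog1, which passed the filter through its reads in mutant RA libraries. Leaving out 1 replicate at a time gave 0 to 1 called members at RA 24 h, at RA 72 h, between RA times, in H3.3K27M and H3.3K27L RA cells and between OPC lines, 1 to 2 in WT-H3.3 and 1 to 3 in H3.3K27M OPC cultures. Neurod1 changed sign in uncalled comparisons: at RA 72 h to 0.10 with all ESC times and 0.0445 with DESeq2, and in H3.3K27M ESCs to 0.0132 at 24 and 72 h alone. With 1 replicate left out its log2 fold change ran from −1.99 to 0.14 at RA 72 h, −0.99 to 0.79 in H3.3K27L and −4.93 to 1.12 in H3.3K27M RA cells, −1.62 to 0.55 in H3.3K27M, −1.18 to 1.71 in H3.3K27L and −1.76 to 0.67 in GSK343 ESCs, and that of Neurog1 from −1.99 to 5.25 in H3.3K27L RA cells. The causes were not tested. The replicate block (2 calls in WT-H3.3 OPC cultures, 1 in H3.3K27M, 1 between OPC lines, 0 in the 3 ESC comparisons) changed no call. The numbers as labelled pair WT-H3.3 with H3.3K27M ESCs, but run the other way in H3.3K27L at most times and vary for GSK343. The block is therefore no check of the H3.3K27L and GSK343 comparisons. OPC libraries share only a number (r 0.152), which there is the same as Dox time. The deposited column headers name all OPC libraries replicate 2, unlike their titles. No paired analysis was possible in RA cells because all carry number 1. Depth limits the rest: beside Neurod1, no ESC library held over 7 counts of a member, and members outside the filter have a value in the fit with no filter alone.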
